A study of Mus musculus with 57 samples.

Results

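The cells described here are single RM1 prostate cancer cells that were sorted from mouse bone as proliferating, divided by whether a read of Mki67 was found in them. Of the 57 cells in the table of all samples, 29 were sorted as proliferating, and 22 of these had Mki67 above 0 (Mki67-positive) while 7 had Mki67 equal to 0 (Mki67-negative). The 2 sets were chosen by the measured value of Mki67 itself, so its level is given as a description and carries no test.

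RM1536, the RM1 derivative used, is a mouse prostate cancer line with 2 added label genes, eCFP for a cyan fluorescent protein and Luc2 for firefly luciferase. Every cell came from a C57BL/6 mouse that had received PKH26-stained RM1536 cells by intracardiac injection, with no further treatment in either set of cells. PKH26 is a membrane dye that is shared out at each division, and cells without the dye were sorted as proliferating while dye-retaining cells were sorted as dormant. Each sample is 1 cell profiled by full-length RNA-seq. The Mki67-positive cells came from 5 mice, with 11 cells from mouse 369 (day 17 after injection), 4 from mouse 1185 (day 14), 3 from mouse 360 (day 17), 3 from mouse 452 (day 16) and 1 from mouse 268 (day 18). The Mki67-negative cells came from 4 mice, with 3 cells from mouse 452, 2 from mouse 369, 1 from mouse 268 and 1 from mouse 288 (day 13). Mice 268, 369 and 452 gave both kinds. The mouse was the replicate, so each gene was compared between 5 and 4 means per mouse, of which 3 rest on 1 cell. The labels of the study do not give the Mki67 state.

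Mki67 encodes Ki-67, a protein that coats mitotic chromosomes and is present in cycling cells and degraded as cells leave the cycle. Its transcript is made mainly in S, G2 and M phase under the control of E2F, MYBL2 and FOXM1, and a cell early in G1 can therefore be cycling and hold little of it. Top2a encodes topoisomerase II alpha, which untangles sister chromatids and is made in the same phases. In single-cell RNA-seq a value of 0 can also mean that the few copies of a transcript were not captured.

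Recovered depth, counted over the 12887 gene rows of the deposited values, ran between 945351 and 5165965 reads in the 29 cells. The tumour label was present in all 29, with eCFP at 327 to 3230 and Luc2 at 1994 to 16708 normalised reads. Leukocyte-rich cells, in which 5 or more of 18 pan-leukocyte genes had a read, numbered 10 of the 22 Mki67-positive cells and 1 of the 7 Mki67-negative cells. Ptprc, the pan-leukocyte surface marker CD45, was above 0 in 3 and 0 cells, and was at most 60.4 normalised reads. More spike-in RNAs (at least 37 features above 0) were found in 6 of the 22 Mki67-positive cells and 3 of the 7 Mki67-negative cells, all 9 of them from mice 369 and 288. The part of leukocyte RNA and of these library differences in the results below was not tested.

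Mki67, at chr7:135689784-135716361 on the minus strand of GRCm38, had a lowest value of 5.88, a median of 226 and a highest value of 1399 normalised reads over the 22 Mki67-positive cells. The 2 positive cells nearest to the threshold, both of mouse 369, held 2 and 4 reads of Mki67, which is 5.88 and 6.93 normalised reads, and the next held 20.1. In the 7 Mki67-negative cells the count of 0 allows up to 3 reads, or 1.92 to 8.21 normalised reads depending on the cell. All 22 positive cells still held a read of Mki67 when every cell was thinned to 945351 reads. Mki67 was above 0 in 22 of 29 proliferating cells (75.9%, exact Clopper-Pearson 95% interval 56.5% to 89.7%) and in 14 of 28 dormant cells (50%, interval 30.6% to 69.4%). Both intervals hold the counting error alone, without the differences between mice. All 29 proliferating cells held spike-in RNA of mix 2 alone and all 28 dormant cells that of mix 1 alone. Sorted state and library preparation can therefore not be told apart in the 2 shares. The dormant share is not one of tumour cells alone, since some dormant cells held almost no tumour label. Among the 14 dormant cells above 0, 2 held 4 reads of Mki67 or fewer. One of these, from mouse 360, held 1 read of Mki67 and 2.28 normalised reads each of eCFP and Luc2.

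Top2a, at chr11:98992943-99024189 on the minus strand, was above 0 in all 22 Mki67-positive cells, with a lowest value of 6.46, a median of 997 and a highest value of 4665 normalised reads. It was above 0 in 5 of the 7 Mki67-negative cells, with a lowest value of 0, a median of 6.52 and a highest value of 450 normalised reads. Above 100 normalised reads stood 19 of the Mki67-positive cells and 3 of the Mki67-negative cells, so the sets overlapped. The 3 Mki67-negative cells with Top2a above 100 were the cell of mouse 288 with 450 and the 2 cells of mouse 369 with 392 and 104. The 2 markers did not always go together in the positive cells: the cell with the most Mki67 (1399) held 17.2 normalised reads of Top2a, and another with 624 of Mki67 held 6.46. Over mouse means, Top2a averaged 9.48 ± 0.52 in Mki67-positive cells (SD, n = 5) and 4.42 ± 4.46 in Mki67-negative cells (SD, n = 4) on the log2(normalised reads + 1) scale. The difference was 5.06 (SE 1.75), with a limma p of 0.00826 and an adjusted p of 0.194 over all genes, which did not pass the threshold of 0.05. With the mean number of genes detected as a covariate the difference was 2.26.

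**Figure D1:**
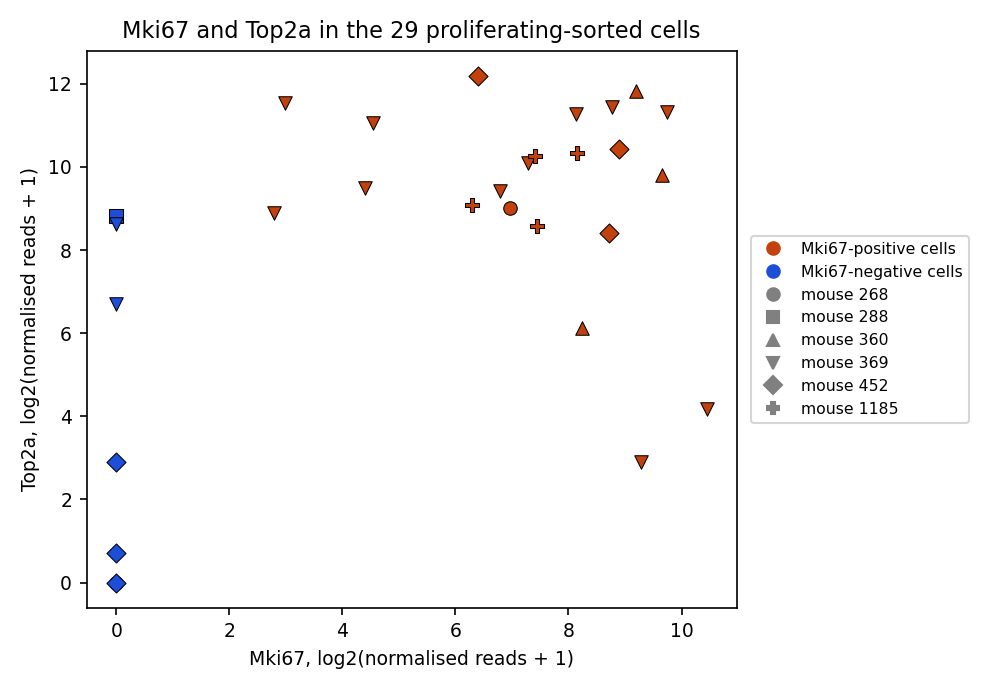
Mki67 (x axis) and Top2a (y axis) in each of the 29 cells, both as log2(normalised reads + 1), with colour for the Mki67 state and symbol for the mouse. The Mki67-negative cells stand at 0 on the x axis, and 3 of the 7 have Top2a above 100 normalised reads.

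On average more genes were detected in Mki67-positive cells, a difference that did not pass after adjustment. The number of genes above 0 per cell had a lowest value of 4413, a median of 8231.5 and a highest value of 10509 in the 22 Mki67-positive cells, against 2399, 6020 and 7649 in the 7 Mki67-negative cells. These counts cover only the 12887 gene rows of the deposited values. Over 8000 genes were detected in 12 of the positive cells and in 0 of the negative cells. The mouse means were 9386, 8480, 8137, 7082.5 and 6832 in Mki67-positive cells of mice 360, 268, 369, 1185 and 452. They were 6834.5, 5995, 5885 and 2399 in Mki67-negative cells of mice 369, 452, 288 and 268. The lowest positive mean (mouse 452) lay just below the highest negative mean (mouse 369), and the other means of each set did not overlap. Within each of the 3 mice with both kinds the positive mean was higher.

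The average over mice was 7983 ± 1046 genes in Mki67-positive cells (SD, n = 5) and 5278 ± 1966 genes in Mki67-negative cells (SD, n = 4). The difference was 2705 genes, with a two-sided exact permutation p of 0.0417, the smallest that the 24 arrangements allow, and 0.104 after adjustment over the 5 measures of cell quality compared. With the mouse as block, the difference was 2740 genes over 3 mice and the exact permutation p was 0.25, the smallest that 3 mice allow. Without mouse 268, whose Mki67-negative cell had the fewest genes of all, the difference was 1621 genes (exact p = 0.167). Thinning every cell to 945351 reads left averages of 7740 genes in Mki67-positive and 5067 genes in Mki67-negative cells, a difference of 2673 (exact p = 0.0417). Recovered reads per cell averaged 2.05e+06 ± 3.78e+05 in Mki67-positive cells and 1.90e+06 ± 9.70e+05 in Mki67-negative cells, with an exact permutation p of 0.583. The mitochondrial share of the values was 4.43% ± 1.40 in Mki67-positive cells and 3.54% ± 3.74 in Mki67-negative cells (exact p = 0.625). Pan-leukocyte genes above 0 numbered 4.70 ± 1.76 per cell in Mki67-positive and 2.38 ± 1.11 in Mki67-negative cells (exact p = 0.167). Detection of Mki67 is one of the detections counted here, so the number of genes per cell is not independent of the split, and a lower capture of RNA and an absence of Mki67 cannot be told apart in a cell with few genes.

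**Figure D2:**
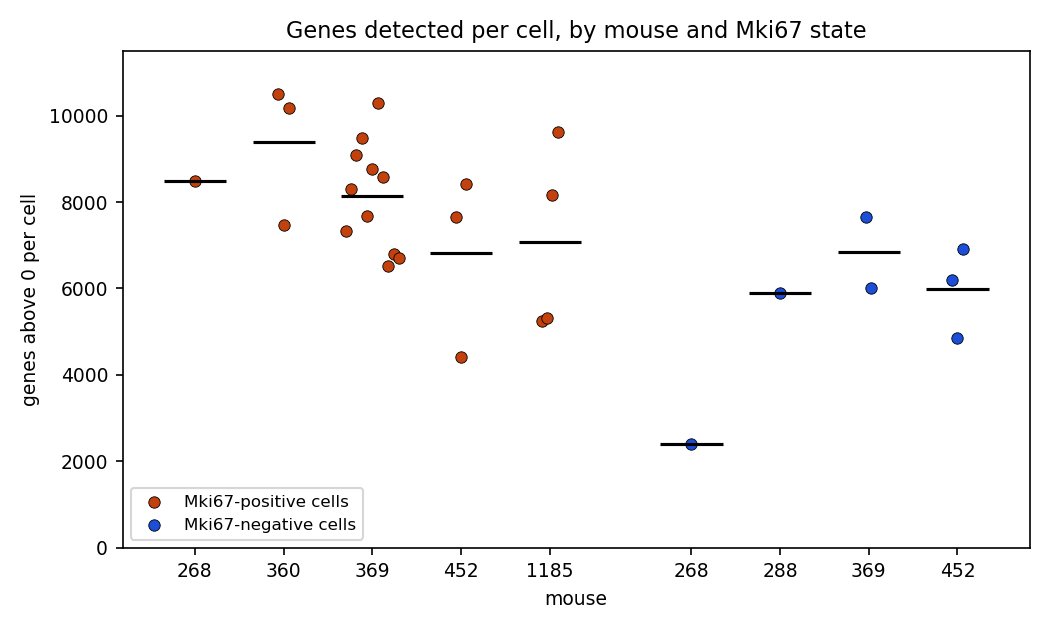
Genes above 0 per cell (y axis) by mouse (x axis), with the Mki67-positive cells on the left and the Mki67-negative cells on the right. Each point is a cell and each bar the mean of a mouse. Positive cells reach 10509 genes and negative cells 7649, and the lowest cell is the Mki67-negative cell of mouse 268 with 2399.

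Across the transcriptome, 10659 genes above 0 in at least 6 of the 29 cells were compared. None passed an adjusted p of 0.05 in limma, in either direction (0% of the genes tested), with 0.178 as the lowest adjusted p. Without adjustment, p was under 0.05 for 2091 genes with a positive difference (19.6%) and 11 with a negative one (0.103%). On recovered reads, edgeR also called none (0%), with 1110 genes (10.4%) at a positive and 39 (0.366%) at a negative difference without adjustment, while DESeq2 called 638 of 9701 genes with a positive difference (6.58%) and 1 with a negative one (0.0103%). The whole distribution was shifted, with 9254 genes (86.8%) having a positive difference and a median over all genes of 1.72 on the log2(normalised reads + 1) scale. A difference on this scale averages cells at 0 with cells above 0, so it also counts how many cells had the gene and is not a fold change within cells. The filter also leaned to positive differences. A gene seen in Mki67-negative cells alone had to be above 0 in 6 of 7 cells. One seen in Mki67-positive cells alone could pass with 6 of 22. With no filter on low values, the median over 12492 genes was 1.40. Without mouse 268 the median over all genes was 0.90, with 1224 genes at an unadjusted p under 0.05 with a positive difference. Without mouse 360 there were 1384 such genes. Rescaling each cell by a median of ratios or to equal total reads gave medians of 1.55 and 1.49. With the mean number of genes detected as a covariate, the median over all genes was 0.23 and 5938 genes (55.7%) had a positive and 4721 (44.3%) a negative difference, with 240 genes (2.25%) at a positive and 178 (1.67%) at a negative difference with an unadjusted p under 0.05, and again none passed. Most gene lists and many single genes are therefore also given with this covariate, to be read beside the median of all genes.

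Of the 23 gene lists, the 4 of chromosome condensation and mitosis had the largest medians. The list of mitotic cyclins, kinases and parts or regulators of the anaphase-promoting complex had a positive difference in 28 of 28 genes, a median of 3.94 and 17 genes (60.7%) at an unadjusted p under 0.05, against 19.6% of all genes. Kinetochore and spindle checkpoint genes were positive in 32 of 32, with a median of 3.21 and 15 genes at that p. Spindle motor and cytokinesis genes were positive in 30 of 30, with a median of 3.44 and 14 such genes. Chromosome condensation genes were positive in 10 of 11, with a median of 3.61 and 6 such genes. No member of these lists passed the adjusted threshold. With the covariate the 4 medians were 1.48, 1.76, 2.16 and 1.36 in the order given, against 0.23 for all genes. Without mouse 268 they were 3.17, 3.16, 3.57 and 2.85, against 0.90 for all genes. Members at 0 in all 7 negative cells numbered 1 of 28, 2 of 32, 3 of 30 and 0 of 11, against 729 of all 10659 genes, so this was not particular to these lists. With those set to the difference that 3 reads would allow the medians were 3.87, 2.94, 3.18 and 3.61, against 1.54 for all genes.

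Kif23, a kinesin of the central spindle that is needed for cytokinesis, had the smallest p of all genes that went the same way in the 3 mice with both kinds. It was above 0 in 18 of 22 Mki67-positive cells, with a median of 367 and a highest value of 1096 normalised reads, and in 0 of 7 Mki67-negative cells. Its mean log2 value in Mki67-positive cells was 9.15, 7.80, 6.79, 6.52 and 6.08 in mice 360, 1185, 268, 452 and 369, and it was 0 in Mki67-negative cells of all 4 mice. The groups did not overlap over mice, in a gene picked for its small p. How many of all genes part in this way is not given here, and 729 of 10659 were at 0 in all negative cells. The mean of 372 normalised reads in positive cells was 71.2 times the 5.23 that 3 reads per negative cell would give, averaged over mice. This ratio leaves out the error of the positive mean. The fitted difference was 7.27 (SE 1.43, limma adjusted p = 0.178, range over the alternatives 1.86e-08 to 0.965), and 6.83 with the covariate.

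Ndc80, the kinetochore protein that binds spindle microtubules, was above 0 in 18 of 22 Mki67-positive cells with a median of 374 normalised reads. It was above 0 in 1 of 7 Mki67-negative cells, at 402 normalised reads in a cell of mouse 452. The difference was 7.0 (SE 1.55, limma adjusted p = 0.178). Of other kinetochore genes, Cenpl and Cenpk, of the constitutive centromere network, were above 0 in 16 and 20 of 22 positive cells and in 0 and 1 of 7 negative cells, and Knl1, the scaffold for checkpoint proteins, in 17 and 1. Their differences were 5.29, 5.61 and 5.77.

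Ccna2, the cyclin of S and G2 phase, had a median of 1221 and a highest value of 2774 normalised reads in Mki67-positive cells, of which 21 of 22 were above 0. In Mki67-negative cells the median was 0.64 and the highest value 463, and the 2 cells of mouse 369 held 463 and 224 while the other 5 held at most 4.40. The difference was 6.80 (SE 1.85, limma adjusted p = 0.178), and 3.67 with the covariate. Aurka, the kinase of spindle poles, and Melk, a mitotic kinase, had medians of 506 and 211 normalised reads in positive cells and 5.47 and 0 in negative cells. Bora, the activator of Aurora A towards PLK1, was above 0 in 18 of 22 positive and 1 of 7 negative cells. The differences of these 3 genes were 5.41, 5.39 and 4.39.

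Among cytokinesis genes, Cep55, which recruits the abscission machinery to the midbody, was above 0 in 19 of 22 Mki67-positive cells with a median of 154 normalised reads and in 1 of 7 Mki67-negative cells at 2.78. Anln, the actin-binding anillin of the contractile ring, had a median of 909 in positive cells and was above 0 in 2 of 7 negative cells, at 681 in the cell of mouse 288 and 5.56 in a cell of mouse 369. Kif20a, a kinesin of the central spindle, had medians of 896 in positive and 1.10 in negative cells. Their differences were 5.92, 6.70 and 6.18, and 4.65, 4.92 and 3.15 with the covariate. The condensin subunits Ncaph and Ncapd3 had differences of 4.74 and 4.71, and Kif4, a chromosome-bound kinesin, 3.61.

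Ccnb1 and Cdk1, the cyclin and the kinase that drive entry into mitosis, were above 0 in all 22 Mki67-positive cells, with lowest, median and highest values of 127, 1864 and 9015 normalised reads for Ccnb1 and 214, 976 and 2598 for Cdk1. Each was above 0 in 5 of 7 Mki67-negative cells, with medians of 498 and 261 and highest values of 992 and 838 normalised reads, within the range of the positive cells. Their differences were 4.12 (SE 1.49, limma adjusted p = 0.194) and 3.81 (SE 1.53, limma adjusted p = 0.207), and 1.06 and 0.41 with the covariate.

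**Figure D3:**
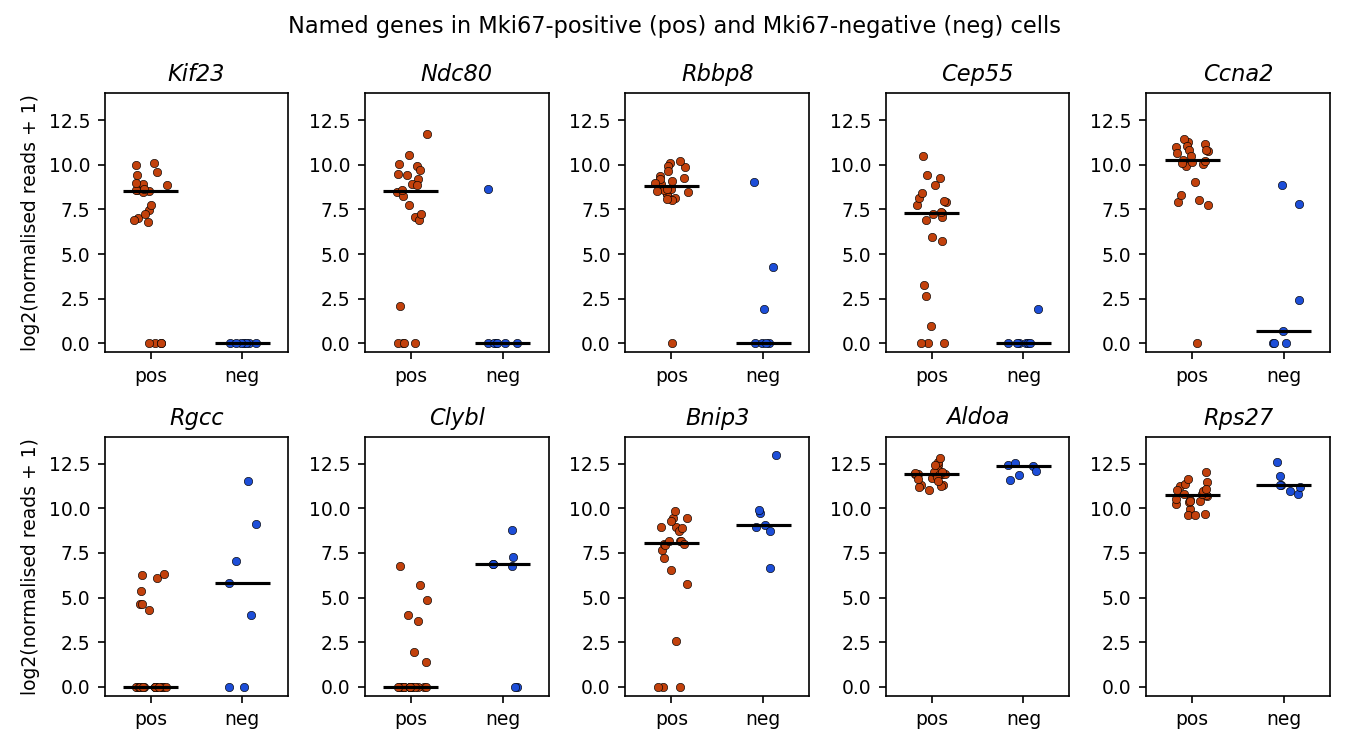
Level of 10 named genes in single cells, as log2(normalised reads + 1), with Mki67-positive cells (pos) left of Mki67-negative cells (neg) and a bar at the median of the cells. Kif23 is at 0 in all 7 negative cells, while Aldoa and Rps27 are above 0 in every cell of both sets.

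Many genes of G2 and M phase carry near their start a cell cycle homology region, the element read by the MuvB complexes that repress such genes in arrested cells and activate them with MYBL2 and FOXM1. Its 6-base core, TTTGAA on either strand, was looked for in the 100 bases before the start in RefSeq promoters of GRCm38.p6, since the mitosis lists had the largest medians. It was found in 22 of the 86 mitosis genes with a promoter in that table (25.6%) and in 297 of 7943 genes tested (3.74%). A match to these letters is a description of the sequence and was not tested as a binding site. The last 60 bases before the start of Top2a (chr11:99024190-99024249, minus strand), Cep55 (chr19:38054981-38055040, plus strand) and Cdk1 (chr10:69352913-69352972, minus strand) are shown 5′ to 3′ because these 3 hold the core there, with the core or its reverse complement in capitals.
Top2a: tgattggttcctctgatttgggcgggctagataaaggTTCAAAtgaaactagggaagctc
Cep55: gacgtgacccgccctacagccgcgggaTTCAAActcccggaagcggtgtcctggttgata
Cdk1: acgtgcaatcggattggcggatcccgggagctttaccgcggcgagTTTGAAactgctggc
The core begins 23 bases before the RefSeq start in Top2a, 33 in Cep55 and 15 in Cdk1. By GENCODE positions Cep55 starts at 38055011 and Cdk1 at 69352938, within the stretches shown. The place of the core relative to the start of these 2 genes thus depends on the annotation. These are the marker that was read beside Mki67, a gene nearly missing from the negative cells, and a kinase present in 5 of 7 negative cells.

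Genes of DNA replication lay nearer to the median of all genes. Of 46 genes of the replication machinery, 44 had a positive difference, with a median of 2.49 and 6 genes (13.0%) at an unadjusted p under 0.05, against 19.6% of all genes. With the covariate the median was −0.45, below the 0.23 of all genes, and without mouse 268 it was 1.23. Rpa1, a subunit of the single-strand binding complex, had medians of 574 normalised reads in Mki67-positive cells and 0 in Mki67-negative cells, and Rfc4, a subunit of the clamp loader, 496 and 23.9. The helicase subunit Mcm5 had medians of 339 and 0, and the polymerase subunit Pold3 127 and 0. The differences of these 4 genes were 5.79, 5.06, 4.88 and 3.82, with limma adjusted p of 0.178 to 0.219. With the covariate they were 2.68, 2.73, 1.66 and 1.38.

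Pcna, the sliding clamp of the replication fork, showed how much a mean can rest on 1 cell. It was above 0 in all 22 Mki67-positive cells with a lowest value of 590, a median of 1451 and a highest value of 3166 normalised reads. In Mki67-negative cells it was 0 in the cell of mouse 268 and 652 to 1802 in the other 6. The mouse means were 10.93, 10.54, 10.19, 10.12 and 9.90 in Mki67-positive cells of mice 369, 360, 452, 268 and 1185, and 10.21, 10.15, 9.98 and 0 in Mki67-negative cells of mice 369, 288, 452 and 268. Apart from mouse 268 the 2 sets overlapped. The difference was 2.75 (SE 1.95, limma adjusted p = 0.406), and −2.33 with the covariate. Mcm2, another helicase subunit, had medians of 367 and 209 normalised reads and a difference of 1.45 (SE 1.95, limma adjusted p = 0.649), which was −0.78 without mouse 268 and −4.01 with the covariate.

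For nucleotide supply, 14 of 14 genes had a positive difference with a median of 2.73, and 3 (21.4%) had an unadjusted p under 0.05. The median was −0.61 with the covariate and 1.36 without mouse 268. Rrm2 and Rrm1, the subunits of ribonucleotide reductase, had medians of 1692 and 1123 normalised reads in Mki67-positive cells and 183 and 145 in Mki67-negative cells, and both were 0 in 3 of the 7 negative cells. The purine synthesis enzymes Gart and Atic had differences of 4.56 and 3.93, and 0.38 and −0.058 with the covariate. G1/S regulators were positive in 13 of 15 genes with a median of 2.73, and 6 (40%) had an unadjusted p under 0.05. Their median was 0.37 with the covariate. Ccnd2, a D-type cyclin, had medians of 370 and 59.8 normalised reads in positive and negative cells, and Cdc25a, the phosphatase that activates CDK2, 64.5 and 0. E2f8, a repressor of E2F targets late in S phase, and Cdk2 had differences of 4.06 and 3.28. The genes of replication-coupled repair had a median of 2.17 in 20 genes, of which 7 (35%) had an unadjusted p under 0.05. With the covariate this median was −0.17. A list of cycling chromatin, lamin and tubulin genes had a median of 2.08, and −0.45 with the covariate. Of its 20 genes, 2 had an unadjusted p under 0.05.

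Counted as detections, the 102 genes of the 4 mitosis lists had a lowest number of 28, a median of 89 and a highest of 102 above 0 per Mki67-positive cell, against 10, 39 and 79 per Mki67-negative cell. The 46 replication genes had 14, 42.5 and 46 above 0 in Mki67-positive cells and 4, 25 and 42 in Mki67-negative cells. The plot of cell cycle genes against all genes gives both counts for each cell.

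**Figure D4:**
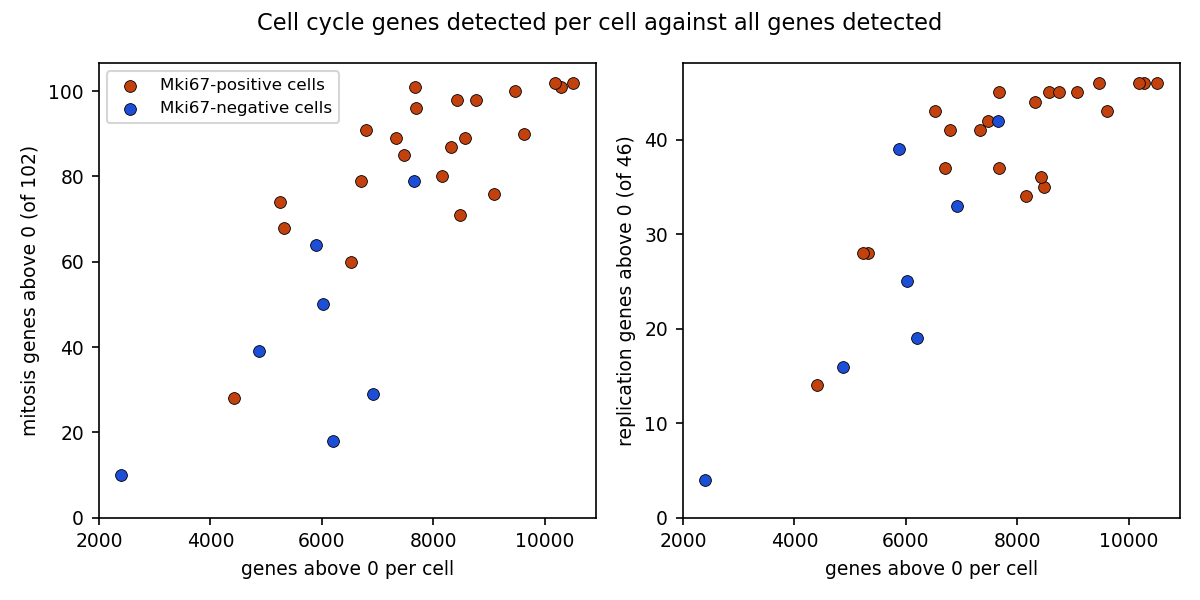
Number of mitosis genes (left) and replication genes (right) above 0 in each cell (y axis) against all genes above 0 in that cell (x axis). Positive cells reach 102 mitosis genes and negative cells 79, and 2 of the negative cells with over 6000 genes hold 18 and 29 mitosis genes.

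The 7 Mki67-negative cells were not alike. The 2 cells of mouse 369 and the cell of mouse 288 had 79, 50 and 64 of the 102 mitosis genes above 0 and held 718, 498 and 992 normalised reads of Ccnb1, and all 3 also held Cdk1, Pcna and Mcm2. These are the 3 negative cells with more spike-in RNAs found. In mouse 452 a cell with 6203 genes detected and 5165965 reads, the deepest of the 29, had 18 mitosis genes above 0, no read of Ccnb1 or Cdk1, and 652 normalised reads of Pcna and 273 of Mcm2. A second cell of mouse 452 with 6919 genes had 29 mitosis genes, no read of Ccnb1, and 326 of Cdk1, with 33 of 46 replication genes above 0. The other cell of mouse 452, with 4864 genes, had 39 mitosis genes with 774 of Ccnb1 and 650 of Cdk1, and 16 replication genes. The cell of mouse 268 had 2399 genes, 10 mitosis genes and 4 replication genes, and none of Cdk1, Pcna and Mcm2. Of the Mki67-positive cells, 1 of mouse 452 with 4413 genes had 28 mitosis genes and 14 replication genes with 422 normalised reads of Mki67.

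The list of cell cycle arrest genes and of the DREAM complex, which represses cell cycle genes in resting cells, had a positive difference in 23 of 26 genes, against 86.8% of all genes, with a median of 1.94 and 4 genes (15.4%) at an unadjusted p under 0.05, against 19.6% of all genes. The median was 0.39 with the covariate. Cdkn1a, the CDK inhibitor p21, was above 0 in all 29 cells, with medians of 428 normalised reads in Mki67-positive and 284 in Mki67-negative cells and highest values of 1005 and 1023. Its difference was 1.51 (SE 1.52, limma adjusted p = 0.534) and changed sign to −0.43 without mouse 268 and −2.10 with the covariate. Cdkn1b, the inhibitor p27, was above 0 in 8 of 22 positive and 1 of 7 negative cells, with a difference of 0.67 (SE 1.27, limma adjusted p = 0.754), −0.28 without mouse 268 and −0.38 with the covariate. Rbl2, the pocket protein p130 of DREAM, was above 0 in 13 of 22 positive cells and in 0 of 7 negative cells. Its mean of 60.03 normalised reads was 11.5 times the 5.23 that 3 reads per negative cell would give, with the error of that mean left out. Lin9 and Lin52, of the MuvB core, were above 0 in 17 and 12 positive cells and in 1 negative cell each, and Cdkn2c, the CDK4 and CDK6 inhibitor p18, in 14 and 1. Targets of p53 had a median of 1.60 in 16 genes and −0.54 with the covariate.

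Outside the cell cycle, the other genes with a positive difference and the smallest p came from varied functions. Prpf4, a spliceosome protein, and Cnot6, a deadenylase of the CCR4-NOT complex, were above 0 in 20 and 19 of 22 Mki67-positive cells and in 0 of 7 Mki67-negative cells. Opa3, a mitochondrial protein, was above 0 in 21 and 0 cells. At 3 reads per negative cell the positive means would be 27.4, 49.8 and 28.8 times the negative ones, in the order named. These ratios leave out the error of the positive means, in genes picked for a small p. Rbbp8, the DNA end resection factor CtIP, had a median of 443 normalised reads in positive cells and was above 0 in 3 of 7 negative cells, 1 of them at 518. Itga6, the laminin receptor subunit integrin alpha 6, had a median of 597 in positive cells and was above 0 in 3 of 7 negative cells at up to 496. Myg1, an exonuclease, Elmo2, an adaptor for RAC activation, and Cpne1, a calcium-dependent membrane-binding protein, were above 0 in 22, 21 and 19 positive cells and in 2, 3 and 2 negative cells. The differences of these 8 genes and of Kif23 and Ndc80 were between 6.21 and 7.27, each with a limma adjusted p of 0.178. They were between 5.76 and 7.39 without mouse 268 and between 4.86 and 6.83 with the covariate.

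Few genes had a negative difference, at 1405 of 10659 (13.2%) under a filter that leaned to positive ones, and none passed the adjusted threshold. Rgcc, a regulator of cell cycle progression that responds to p53 and complement, had the smallest p among those that went the same way in the 3 mice with both kinds. It was above 0 in 7 of 22 Mki67-positive cells, at up to 79.0 normalised reads, and in 5 of 7 Mki67-negative cells, at 2908 in mouse 268, 552 and 15.2 in mouse 452, 133 in mouse 288 and 54.7 in mouse 369. Its mean log2 value in positive cells was 2.45, 1.54, 1.52, 0 and 0 in mice 369, 360, 1185, 268 and 452, and in negative cells it was 11.51, 7.07, 4.38 and 2.90 in mice 268, 288, 452 and 369. Every negative mean was above every positive mean, in a gene picked for its small p, and how many of all genes part in this way is not given here. The difference was −5.36 (SE 1.64, limma p = 0.00339, adjusted p = 0.185), and −1.97 with the covariate. Rgcc was also the 1 gene that DESeq2 called lower, at an adjusted p of 0.00093, among 639 calls.

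Bnip3, a mitophagy receptor induced in hypoxia, had lowest, median and highest values of 0, 270 and 937 normalised reads in Mki67-positive cells and 98.5, 527 and 8283 in Mki67-negative cells, with a difference of −2.73 (SE 1.20, limma adjusted p = 0.23). Clybl, a mitochondrial enzyme of citramalyl-CoA breakdown, was above 0 in 7 of 22 positive and 5 of 7 negative cells, with a difference of −3.77. Spata24, Vwa5a and Tmem9 had differences of −3.75, −3.79 and −3.31, and Xrcc5, the Ku80 subunit of DNA end joining, −2.17. Of the 9 genes named for the smallest p among negative differences, 8 had their highest value of all 29 cells in the Mki67-negative cell of mouse 268, the cell with the fewest genes. Without that mouse all 9 differences were still negative, between −4.19 and −0.27, and with the covariate 7 were.

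Glycolysis and ribosomal protein genes had medians near 0, where all genes had 1.72. Glycolysis genes had a positive difference in 6 of 17 genes with a median of −0.18, and 0.22 with the covariate, close to that of all genes in the same fit. Aldoa, aldolase A, had medians of 3856 normalised reads in Mki67-positive and 5240 in Mki67-negative cells, with a difference of −0.79 (SE 0.40, limma adjusted p = 0.265) that became 0.22 with the covariate. Pgam1, the phosphoglycerate mutase, had a difference of −0.77, while Slc2a1, the glucose transporter GLUT1, and Pfkl, a phosphofructokinase, had 3.23 and 3.10. The cytosolic ribosomal proteins, a list added after the values were seen, had a positive difference in 13 of 84 genes and a median of −0.20, which was −0.66 when cells were scaled to equal total reads and 0.13 with the covariate. Rps27 of this group had a difference of −0.91, with medians of 1695 normalised reads in Mki67-positive cells and 2551 in Mki67-negative cells, and with the covariate 0.15. The 13 mitochondrially encoded proteins, also added, had 12 positive differences and a median of 2.79, and 1.45 with the covariate. Of these 13, 1 (7.69%) had an unadjusted p under 0.05, against 19.6% of all genes. Their mean log2 value per cell was 6.30 to 13.13 in positive and 4.28 to 13.66 in negative cells, so the sets overlapped. The list of MYC targets and ribosome biogenesis had 31 of 32 positive differences with a median of 2.24, and −1.05 with the covariate.

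**Figure D5:**
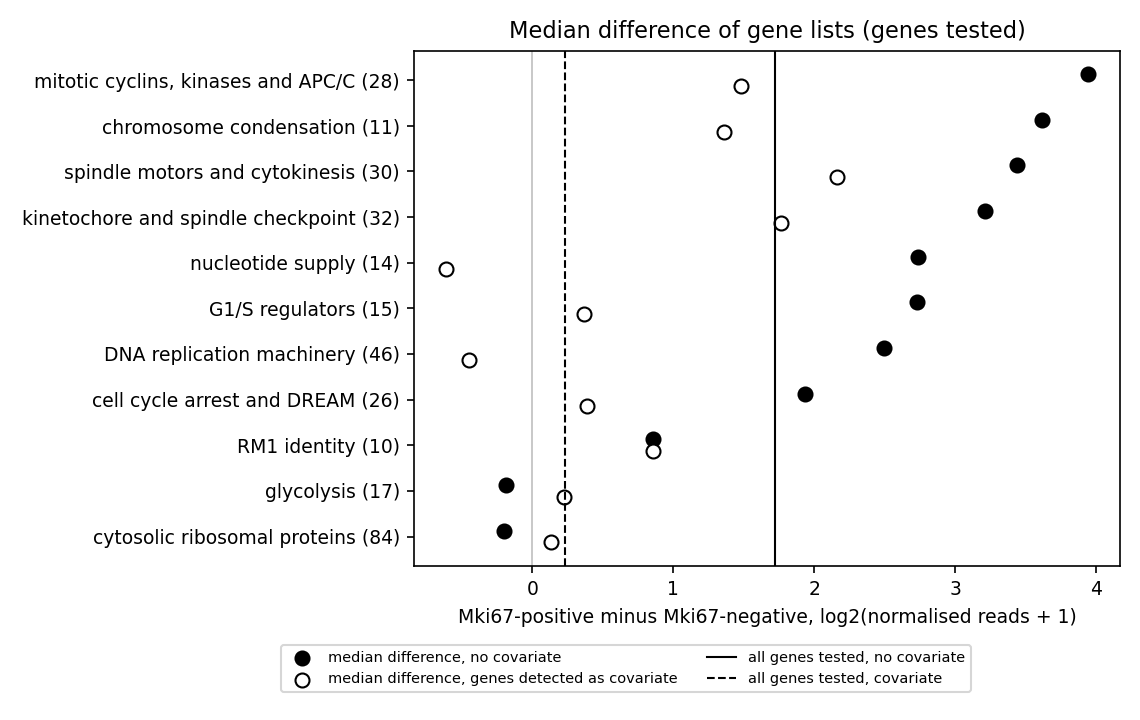
Median difference between Mki67-positive and Mki67-negative cells (x axis, log2(normalised reads + 1)) of 11 gene lists, with the number of genes tested in brackets. Filled points are without and open points with the number of genes detected as a covariate, and the lines mark the median of all genes, at 1.72 and 0.23. For the 4 mitosis lists the filled points lie right of the solid line and the open points right of the dashed line, while the filled points of glycolysis and ribosomal proteins lie left of 0.

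Genes that identify the RM1 cells had a median below that of all genes without the covariate and above it with the covariate. The list had 9 of 10 positive differences with a median of 0.86, which was also 0.86 with the covariate, and 4 genes had an unadjusted p under 0.05. Luc2 averaged 13.0 ± 0.38 in Mki67-positive cells (SD, n = 5) and 11.8 ± 0.64 in Mki67-negative cells (SD, n = 4) on the log2 scale, a difference of 1.18 (SE 0.32, limma adjusted p = 0.178). eCFP had medians of 1483 and 984 normalised reads and a difference of 0.84 (limma adjusted p = 0.355). The keratin Krt8 was above 0 in all 29 cells with a difference of 0.87 (limma adjusted p = 0.557), whereas its partner Krt18 had medians of 730 and 8.35 normalised reads and a difference of 6.34 (limma adjusted p = 0.178). Krt19 was above 0 in 9 of 22 positive and 0 of 7 negative cells. Anxa1, an annexin, had a difference of 0.83. Of the other lists, interferon response genes had a median of 0.77 in 27 genes, and immediate early and dissociation stress genes 1.33 in 19 genes. With the covariate these medians were −0.44 and −0.51. Pan-leukocyte genes had a median of 0.64 in the 8 of 18 genes tested, macrophage genes 1.24 in 4, neutrophil genes 2.27 in 3, erythroid genes 1.29 in 2 and osteoblast and stromal genes 2.44 in 5, while no lymphoid or endothelial gene was detected in enough cells. Whether RNA of such cells contributed to the differences was not tested. Across all genes the median was 1.72 in that fit. With members at 0 in all negative cells set at 3 reads, the pan-leukocyte, neutrophil and erythroid medians were 0.24, 0.47 and −0.0024. The highest mean log2 value of the neutrophil list (7.73) and of the erythroid list (10.8) was in the same Mki67-positive cell of mouse 1185.

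When the comparison was made within the 3 mice that gave both kinds, with the mouse as block, 5 genes were called with a positive difference (0.0469% of 10659) and 1 with a negative one (0.00938%), all named here after their values were seen. mt-Co3, a mitochondrially encoded cytochrome oxidase subunit, had a difference of 2.24 (SE 0.33, limma adjusted p = 2.47e-07). The chaperone Hsp90aa1 had 1.78, Luc2 1.44, Ran, a GTPase of nuclear transport, 1.79, and the sialomucin Cd164 4.94. S100a6, a calcium-binding protein, had −0.80 (SE 0.18, limma adjusted p = 0.0252). Its mean log2 value was 13.70, 13.49 and 11.93 in Mki67-positive cells of mice 268, 369 and 452, and 14.34, 13.86 and 13.30 in Mki67-negative cells of the same mice. These genes were called in a fit that rests on 3 pairs of means with 2 of the 6 means from 1 cell, and over all 6 mice their limma adjusted p was 0.178 to 0.585. In this fit limma pooled the spread over genes, so SE and p reflect little of how a gene's 3 pairs differ. For mt-Co3 the means in mice 268, 369 and 452 were 13.94, 12.81 and 12.47 in positive cells. In negative cells of these mice they were 10.22, 10.92 and 11.36.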

How the data were processed

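Full-length cDNA of sorted single cells was sequenced with spike-in RNA added. STAR, RSEM, GRCm38 and mm10 are named, without versions, in the submitters' processing notes. Per the series text the authors normalised with BASiCS, so the deposited values are a signal, normalised reads per gene and cell. Dividing a cell's values by its smallest step gave whole reads for 100% of them (tolerance 0.01 reads). The series text states 32 proliferating cells, of which 29 were analysed here. Libraries were made in batches of 1 sorted state, per the labels' protocols. Which batch held which cell was not used here.

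Values were averaged as log2(value + 1) per mouse and Mki67 state. Genes above 0 in at least 6 cells were compared by limma (3.58.1) with trend and robust moderation and Benjamini-Hochberg adjustment. Since recovered reads were whole, their sums were also put through edgeR (4.0.16) and DESeq2 (1.42.0), which called 0 and 639 genes. Measures per cell were compared by an exact two-sided permutation test that swapped states within mice with both and among the others. Pairing comes from the mouse labels, and the deviations of paired means correlated at 0.0017, 0.314 and 0.073 in mice 268, 369 and 452. No pair of cells correlated above 0.891. P-values of the main comparison rest on the spread between mice, with 3 of 9 means resting on 1 cell. limma draws the spread of each gene towards that of other genes, almost wholly so in the fit with the mouse as block.

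The cells, the 23 gene lists and the tests were chosen with earlier results of these data known, and lists overlap in a few genes. Named genes were Mki67 and Top2a, the 10 genes of each sign with the smallest p that went the same way in the 3 mice with both kinds, up to 4 members per described list by smallest p, and a fixed set of 10 checks. Of all these, 1 gene is not reported here. Alternatives changed the pseudocount, filter, averaging, weights, scaling, depth, split, cells and mice. Those by spike-ins and by at least 5000 genes were chosen after seeing the data. Scripts were tested on simulated data. Gene positions come from GENCODE vM21 for GRCm38, promoters from RefSeq (GRCm38.p6). Work was done in R 4.3.3 and in Python 3.11.15 with scipy 1.17.1, pandas 2.3.3 and, for figures, matplotlib 3.10.9.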

Additional observations from a re-analysis of the deposited data

Results flagged for a closer look

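Over 125 groups of 4 or 5 mouse means, 23 had 1 mean that stood far from the others by Dixon's criterion. For values that vary continuously, chance alone meets it in about 1 group in 20. Where all other means are 0, any mean above 0 is flagged, so that rate does not apply to such groups. The 23 can therefore not be read as an excess over it. Values are means of log2(normalised reads + 1) per mouse unless named otherwise. In Mki67-positive cells mouse 268, which gave 1 such cell, stood apart for Melk at 0, against 5.67 to 7.90 in the others, Ccnb1 at 7.70 (others 10.45 to 11.51), Cdkn2c at 5.59 (others 2.22 to 3.11) and eCFP at 11.66 (others 10.36 to 10.63). Its recovered reads were 1.41e+06, against 2.13e+06 to 2.42e+06 in the others.

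In Mki67-negative cells mouse 268 stood apart for Pcna at 0 (others 9.98 to 10.21) and Cdkn1a at 1.63 (others 8.28 to 8.86). Mouse 288 stood apart for Anln at 9.41 (others up to 1.36) and Cdkn1b at 5.67 (others at 0). In mouse 369 the means of Ccna2 at 8.34, Kif20a at 7.94 and Kif4 at 4.16 lay above those of the other mice, which reached 1.05, 1.33 and 0.36. The means of Cenpk at 4.203, Knl1 at 3.27, Bora at 2.52, Cep55 at 0.96 and Melk at 0.95 in that mouse stood against 0 in the other 3. Mouse 452 held the only Mki67-negative means above 0 for Myg1 at 3.07, Ndc80 at 2.88, Lin9 at 2.70, Lin52 at 2.43, Cdkn2c at 1.89 and Cpne1 at 1.07.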

How the results depend on the processing

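The main limma comparison called 0 genes in either direction, and 1 or more were called under 5 of 26 alternatives. These were the log of the mean value (72 higher), the replicate block (5 higher, 1 lower), a split by Top2a in place of Mki67 (737 higher, 9 lower), DESeq2 (638 higher, 1 lower) and cells with fewer spike-ins (1 higher). The cause of these differences was not tested. The split by Top2a compared means of 6 and 2 mice. Its side at 0 held only the Mki67-negative cell of mouse 268 with 2399 genes and a cell of mouse 452 with 4864 genes. The difference in genes detected per cell stayed positive throughout, at 1621 to 3232 genes when a mouse was left out, where no p under 0.0833 can be reached. It was 2293 without leukocyte-rich cells (exact p = 0.167), 3951 with the split by Top2a (exact p = 0.25), 2740 with the replicate block (exact p = 0.25), 3827 in cells with fewer spike-ins (exact p = 0.25) and 1607 in cells with more (exact p = 0.5). Recovered reads per cell differed by −30746 (without mouse 369) to 543107 (without mouse 452) when a mouse was left out, and by −145864 in cells with fewer spike-ins.

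Of 64 named genes with a test, 50 kept the sign of their difference under all alternatives that gave a value. With genes detected as a covariate the differences were −4.01 for Mcm2, −2.33 for Pcna, −2.10 for Cdkn1a, −1.44 for Slc2a1, −0.66 for Rrm2, −0.61 for Pfkl, −0.41 for Rrm1, −0.38 for Cdkn1b, −0.22 for Anxa1 and −0.058 for Atic, and 0.22 for Aldoa and 0.15 for Rps27. When a mouse was left out they ran from −0.78 to 2.60 for Mcm2, −0.43 to 2.33 for Cdkn1a and −0.28 to 2.09 for Cdkn1b, lowest without mouse 268 in each case. In cells with at least 5000 genes they were −0.99, −0.15 and −0.20. In cells with more spike-ins they were −2.49 for Slc2a1, −0.50 for Mcm2 and 0.30 for Pgam1. Cdkn1b was at −0.81 in edgeR and −0.67 in DESeq2, and in the table of 4 mice Cdkn1a was at −0.49 and Anxa1 at −0.0047. Krt8 was at −0.080 with the replicate block, −0.51 with the split by Top2a and −0.59 in cells with fewer spike-ins. The replicate block changed the call of 1 named gene, Luc2. Other alternatives changed further calls. Kif23, Prpf4, Opa3 and Cnot6 passed with the log of the mean value (limma adjusted p = 0.0324 each). In DESeq2, Kif23, Prpf4, Opa3 and Rbbp8 were among those that passed (adjusted p = 1.86e-08, 1.32e-06, 3.41e-06 and 0.0217).

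The 4 mitosis lists kept a positive median under each alternative, but so did all genes, at 0.23 to 2.65. In cells with more spike-ins the mitosis medians were 0.92 to 2.28, against 0.51 for all genes. In cells with fewer spike-ins they were 4.73 to 5.69, against 2.65. The medians of the replication and nucleotide lists were negative with the covariate, as given above. Depth limits Mki67 to about 3 reads in a cell at 0, and 7 negative cells from 4 mice limit every comparison.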
